A study of Mus musculus with 2 samples.

Results

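The genes of complement C1q and of the resident macrophages of the marrow were compared between a pair of sorted bone marrow populations. The 8 members were C1qa, C1qb and C1qc, the chains of C1q, and Vcam1, Mertk, Axl, Cd5l and Timd4. A member was any gene of this list with a probe set that the platform annotation assigns to that gene alone. All 8 of 8 were found, with 1 probe set each, among 19935 genes measured in all. The members were selected on their roles and on their intensities on these same arrays, which were known when the list was drawn up. Their values are therefore a description, without a test.

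Cells came from the marrow of 6-week-old mice of the outbred strain ddY. Mononuclear cells were collected from a gradient and stained with antibodies to RANK, through which RANKL drives osteoclast formation, and to c-Fms, through which M-CSF acts. Flow cytometry divided them into a RANKhigh c-Fmslow population and a RANKlow c-Fmshigh population, and the study concerns osteoclast precursors. Neither population had received a treatment or carried an engineered allele, as far as the labels say, and the number of mice behind each array is not given. Each population was measured on 1 single-channel array, 2 arrays in all. There is therefore no replicate error, no difference has a replicate check, and no test was made. The arrays are called RANKhigh and c-Fmshigh after their sort labels.

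Erythroblasts mature in the marrow while attached to a central macrophage, a unit known as the erythroblastic island. The macrophage holds erythroblasts through adhesion molecules, VCAM-1 among them, and engulfs the nuclei they expel. It recognises these nuclei and dying cells through phosphatidylserine, which is exposed on their surface and bound either directly by receptors such as TIM-4 or through bridging proteins by receptors such as MerTK and Axl. C1q, a pattern recognition protein made largely by macrophages and dendritic cells, starts the classical complement pathway and also binds dying cells.

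Intensities are the deposited values, taken as linear from their range, since how they were derived from RMA, which returns log2 values, is not stated. Every fold rests on this reading. A difference is the log2 intensity of RANKhigh cells less that of c-Fmshigh cells. A gene was counted as apart at 2-fold or more, a log2 difference of 1. Olfactory and vomeronasal receptor genes, 1189 in number, served as a guide to background. Their 95th percentile was 83.8 for RANKhigh cells and 81.8 for c-Fmshigh cells. Where the lower value of a gene lay below that percentile, the percentile took its place in the fold, which is then a lower bound written "at least". Intensities of different probe sets depend on the probes, so no order of levels between genes is given. Values written as one against another give RANKhigh cells first. Csf1r, which encodes c-Fms, stood at 164 against 821, in the direction of the sort. Tnfrsf11a, which encodes RANK, stood at 104 against 119, within 2-fold, so its transcript did not show the excess of its label. That label was set by antibody staining of the protein and not by RNA. Both values were above the guide but below the 99th percentile of the same receptor genes (140 and 120), so low signal limits this comparison.

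Of the 8 members, C1qc and Vcam1 were higher by 2-fold or more on the RANKhigh array and 0 were lower by 2-fold or more. Among the 11089 genes with 1 or both values at 93.6 or above (the median of all values, used as a level filter), 4.34% were higher by 2-fold or more and 4.26% lower by 2-fold or more. The other 6 members lay within 2-fold. Of the members, 6 were above the guide on both arrays, Cd5l on the RANKhigh array alone, and Mertk on neither. The median log2 difference over the 8 members was 0.52, beside 0.01 over all 19935 genes. Of the 11089 genes, 48.5% had a difference above 0. The members ranged from -0.06 for C1qa to 1.58 for C1qc, so that the list did not differ between the arrays as a unit.

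**Figure D1:**
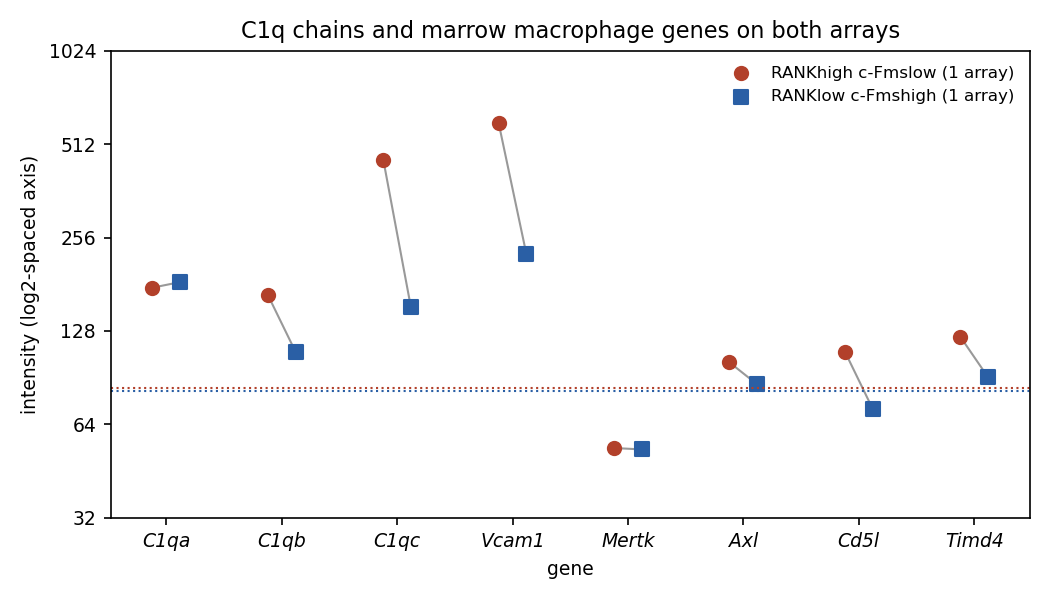
Intensity of each of the 8 member genes (x axis) on the RANKhigh c-Fmslow array (circles) and the RANKlow c-Fmshigh array (squares), on a log2-spaced axis, 1 array per population and 1 probe set per gene, with a line joining the values of a gene. Dotted lines mark the background guide of each array (83.8 and 81.8), above which C1qa, C1qb, C1qc, Vcam1, Axl and Timd4 stand on both arrays, and C1qc and Vcam1 show the widest gaps.

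The C1q chains came first. The A, B and C chains, encoded by C1qa, C1qb and C1qc, assemble in equal numbers into the C1q molecule, and their genes lie next to each other on chromosome 4 in the order C1qb, C1qc, C1qa. C1qc stood at 457 in RANKhigh cells against 152 in c-Fmshigh cells, a 3.0-fold excess in the former. C1qb stood at 167 against 110, 1.52-fold higher on the RANKhigh array and short of 2-fold. C1qa stood at 177 against 184, a log2 difference of -0.06. All 6 values were above the guide, and the chains gave a large, a small and a near-zero difference between the same arrays.

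The mean log2 difference of the 3 chains was 0.71, with an SD of 0.83 between the chains, which measures their disagreement and not replicate error. The differences of C1qc and C1qa lay 1.64 apart on the log2 scale, and those of C1qc and C1qb 0.97 apart. As a measure of how far probe sets can disagree within these arrays, genes with exactly 2 probe sets were examined. Over 558 such genes above the level filter the median gap between both log2 differences was 0.19, the 90th percentile 0.67 and the 99th percentile 1.31. A gap as wide as that between C1qc and C1qa was seen in 3 of the 558. C1qc and C1qa are the widest pair of the 3 chains, and the 558 genes were not matched to them in level. The count is therefore a description and cannot tell probe effects from a difference between the chains. Whether the C1q probe sets respond differently to their transcripts was not tested, and each chain has only 1 of them. Among the 11089 genes, 171 had a larger difference than C1qc, 1101 a larger one than C1qb and 6088 a larger one than C1qa.

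The gene beyond C1qa, Epha8, an ephrin receptor gene, stood at 96.9 against 97.1 and showed no such excess. The stretches upstream of C1qb and C1qc are shown because both genes are neighbours and had differences above 0. The sequences are from RefSeq (GRCm38.p6), on the minus strand of chromosome 4, printed 5′ to 3′ and ending where the annotated gene begins. They cover chr4:136886201-136886450 for C1qb and chr4:136892937-136893164 for C1qc.
C1qb: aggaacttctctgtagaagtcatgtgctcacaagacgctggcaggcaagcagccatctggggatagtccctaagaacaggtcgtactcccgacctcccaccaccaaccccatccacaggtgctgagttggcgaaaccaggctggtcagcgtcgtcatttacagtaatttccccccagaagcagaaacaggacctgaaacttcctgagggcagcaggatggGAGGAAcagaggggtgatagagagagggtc
C1qc: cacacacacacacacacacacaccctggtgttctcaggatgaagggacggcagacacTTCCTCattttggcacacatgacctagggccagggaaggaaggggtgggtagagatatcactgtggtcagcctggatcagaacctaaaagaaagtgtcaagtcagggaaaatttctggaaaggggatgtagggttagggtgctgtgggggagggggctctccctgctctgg
Capitals mark the letters searched on both strands. GAGGAA is the core of the PU box bound by PU.1, a factor of myeloid cells. The C1qb stretch holds GAGGAA at bases 221 to 226, counted from its 5′ end. The C1qc stretch holds GAGGAA at bases 58 to 63, read on the opposite strand (TTCCTC). Of 32851 promoter windows of 228 bases in the same table, 21.2% held GAGGAA. The table had windows for 6 of the 8 members, but none for C1qa and Vcam1, so a C1qa stretch could not be shown. GAGGAA was in those of C1qb, C1qc, Cd5l and Axl. A match of letters is a description and not a binding site.

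By the distance on the plane of both log2 intensities, the genes closest to the mean of the 3 C1q chains were Rab3il1, the immunoglobulin segment Igkv19-93, Pou2f2, Tal1, Spryd4 and Spata24. Rab3il1, for example, stood at 238 against 148, and Tal1, a transcription factor of erythroid and megakaryocytic cells, at 242 against 148. The mean itself was 238 against 145, and none of the chains stood there: C1qc was at 457 against 152, C1qb at 167 against 110 and C1qa at 177 against 184. Closeness to the mean is therefore not likeness to any chain. It also rests on 2 arrays alone, and levels of different probe sets enter into it.

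Vcam1 encodes the adhesion molecule by which island macrophages bind the integrin VLA-4 of erythroblasts, and marrow stroma and endothelium also carry it. It stood at 598 in RANKhigh cells against 227 in c-Fmshigh cells, a 2.64-fold excess in the former. There were 238 of 11089 genes with a larger difference. The genes of the VLA-4 chains did not share its direction: Itga4 stood at 1777 against 2616 and Itgb1 at 713 against 1396, log2 differences of -0.56 and -0.97. Markers of other cells that carry Vcam1 were compared on the same arrays. Of 8 stromal markers 0 reached 2-fold (median -0.06), 5 were below the guide on both arrays, and their summed intensity was 547 against 577. Of those above the level filter, Cxcl12, the chemokine that retains cells in the marrow, stood at 88.8 against 115, and the collagen gene Col3a1 at 101 against 92.6. Of 8 endothelial markers 0 reached 2-fold (median 0.18), 5 were below the guide on both arrays, and the sum was 1057 against 827. Pecam1, which leukocytes also express, stood at 598 against 412, and Eng, endoglin, at 93.9 against 78.8. Which cells carried the Vcam1 transcript was not tested.

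Mertk and Axl encode receptor tyrosine kinases of the TAM family, which bind phosphatidylserine through the bridging proteins Gas6 and protein S. Mertk stood at 53.7 against 53.2, below the guide on both arrays, so that it can be called neither detected nor different. Its log2 difference of 0.02 changed sign when the arrays were centred on their medians (-0.01). Axl stood at 101 against 86.1, a log2 difference of 0.24, and both values were close above the guide. Of 11089 genes, 25.9% had a larger difference than Axl. Tyro3, the remaining TAM receptor gene, stood at 86.5 against 93.1, so that all 3 receptor genes of the family lay within 2-fold and below or little above the guide.

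Cd5l encodes a scavenger receptor cysteine-rich protein that macrophages secrete and that supports their survival. It stood at 110 in RANKhigh cells and, below the guide, at 72.0 in c-Fmshigh cells, an excess of at least 1.34-fold in the former. Fcrl1, its neighbour among the protein-coding genes and a receptor of B cells, was 3.60-fold higher on the RANKhigh array at 755 against 209. Timd4, which encodes the phosphatidylserine receptor TIM-4 of resident macrophages, stood at 123 against 90.9, a 1.35-fold excess on the RANKhigh array. Havcr1, the TIM family gene beside it, was below the guide on both arrays at 75.7 against 57.8. Havcr2, a TIM family gene of myeloid and T cells, had the opposite direction at 58.4 against 105, with the lower value below the guide. Cd5l and Timd4 were thus close to the guide, and both lay inside 2-fold.

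Because the lowest intensities show smaller differences on these arrays, members were also ranked among genes within 0.25 of their own mean log2 intensity. Cd5l and Mertk, with values under the guide, were left out of this ranking. For Timd4 the share with a larger difference was 10.5% of 2490 genes, for Axl 20.9% of 2713 and for C1qb 8.61% of 2045. For C1qc it was 2.25% of 1425 and for Vcam1 2.90% of 1205. C1qa, with 59.1% of 1727, lay in the middle of the genes of its level.

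**Figure D2:**
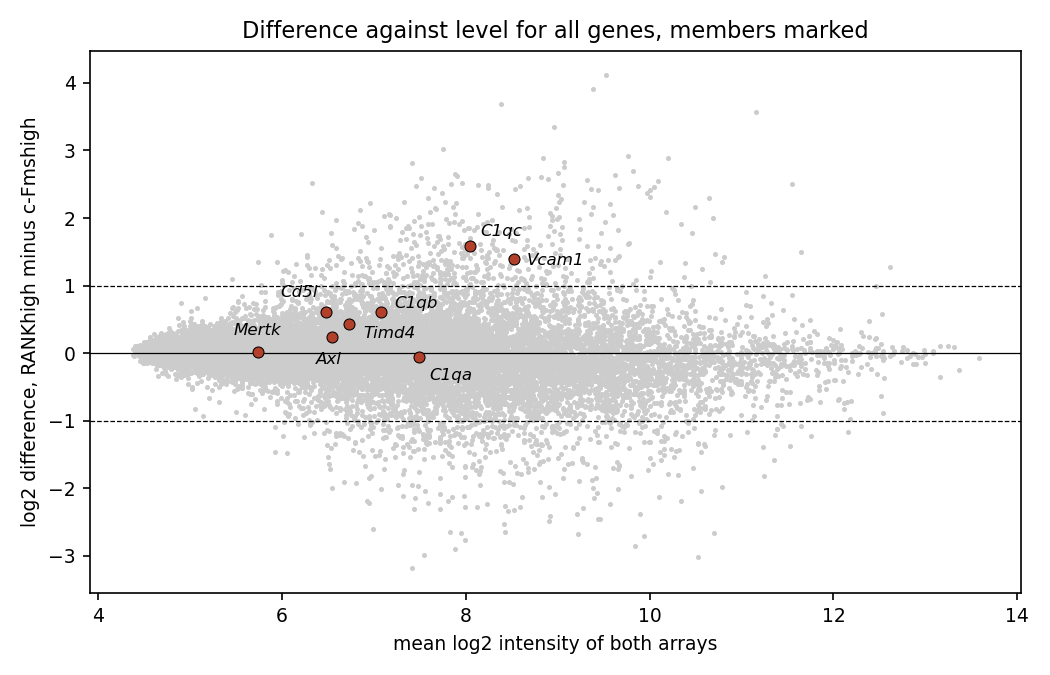
Log2 difference, RANKhigh minus c-Fmshigh, against the mean log2 intensity of both arrays for 19935 genes (grey points), with the 8 members as labelled circles and dashed lines at 2-fold. C1qc and Vcam1 lie above the upper dashed line, the other 6 members between the lines, and differences are small at the lowest intensities.

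Other genes of island and resident marrow macrophages were examined next. Of 16 genes 13 lay within 2-fold, and the median was -0.01. The RANKhigh array had the higher value of 1 gene and the lower value of 2 genes by 2-fold or more. Slc40a1, which encodes the iron exporter ferroportin, stood at 407 against 124 (3.29-fold higher). Adgre1, which encodes the macrophage antigen F4/80, stood at 228 against 739 (3.25-fold lower), and Lrp1, an endocytic receptor of dying cells, at 120 against 305 (2.55-fold lower). Fcna, ficolin A, stood at 319 against 181 (1.76-fold higher) and Hpgd, a prostaglandin-degrading enzyme, at 98.0 against 185 (1.89-fold lower). Siglec1, which encodes CD169, stood at 117 against 116, and Cd163, the haemoglobin-haptoglobin receptor, at 92.9 against 92.1. Spic, the transcription factor of iron-recycling macrophages, stood at 73.3 against 71.0, below the guide on both arrays. Maea, the erythroblast macrophage protein, stood at 287 against 271. These last 6 genes were named after their values were seen. Slc40a1 thus shared the direction of C1qc and Vcam1 with a 2-fold size, Adgre1 and Lrp1 had the opposite one, and the label of island macrophage genes describes the known role of the members and not a population shown by these arrays.

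Genes of island adhesion and of its erythroid side followed. Of 9 genes 3 were higher by 2-fold or more on the RANKhigh array and 0 lower by 2-fold or more, with a median of 0.08. Icam4, the erythroblast ligand of alpha V integrin, stood at 1249 against 168 (7.43-fold), and Epor, the erythropoietin receptor, at 245 against 111 (2.21-fold). Cd36, a scavenger receptor that erythroid precursors and macrophages both carry, stood at 570 against 267 (2.13-fold). Itgav, the macrophage partner of Icam4, stood at 264 against 419.

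Iron recycling was represented by 13 genes, 4 of them higher by 2-fold or more on the RANKhigh array and 2 lower by 2-fold or more (median 0.03). Blvrb, biliverdin reductase B, stood at 928 against 265 (3.51-fold), the transferrin receptor gene Tfrc at 2826 against 1105 (2.56-fold) and the iron transporter gene Slc11a2 at 258 against 112 (2.30-fold). With Slc40a1, these are genes that erythroid cells also express. The transferrin gene Trf stood at 354 against 931 (2.63-fold lower), beside Lrp1. Hmox1, haem oxygenase, stood at 379 against 371. Of the 13 genes, 8 had a difference above 0 and 5 one below 0. All 9 measured erythroid markers were higher by 2-fold or more on the RANKhigh array (median 2.35). These markers shared the direction of the 4 higher iron genes, and their summed intensity was 10607 against 2296. Icam4 and Rhag, a red cell membrane protein gene (1164 against 196), were the furthest apart. Their part in the iron values was not tested.

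Receptors and bridging proteins of efferocytosis, the engulfment of dying cells, were compared beside Mertk, Axl and Timd4. Of 16 receptor genes 1, Cd36, was higher by 2-fold or more on the RANKhigh array and 2 were lower by 2-fold or more, Lrp1 and the phosphatidylserine receptor gene Cd300lb (87.1 against 179). The median was -0.09 over all 16 and -0.63 over the 12 that passed the level filter. Of 8 bridging and signal genes 0 were higher by 2-fold or more and 2 lower by 2-fold or more. Pros1, which encodes the TAM ligand protein S, stood at 98.0 against 331 (3.37-fold lower), and Sirpa, the receptor of the signal against engulfment CD47, at 711 against 1759 (2.47-fold lower). Gas6, the other TAM ligand, was below the guide on both arrays at 71.5 against 72.8.

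The internal machinery of engulfment was measured by 14 genes, of which 11 lay within 2-fold. Of the 14, 12 had a difference below 0, 3 of them at least 2-fold, and 0 were higher by 2-fold or more, with a median of -0.42. Dock1, the exchange factor that activates Rac in engulfment, stood at 86.8 against 334 (3.85-fold lower), its partner Elmo2 at 143 against 319 (2.23-fold lower) and Vav3 at 209 against 536 (2.56-fold lower).

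Most of the measured partners of C1q in the complement cascade gave values below the guide, and C3 and Cfd were not measured. Of 10 measured genes of complement initiation and amplification 0 reached 2-fold, 7 were below the guide on both arrays, and the median was -0.04. Those 7 include C1ra, C1s1 and C1s2, the proteases that C1q carries (C1ra at 63.7 against 72.7), and C2 and C4b, their substrates. The largest differences among genes that passed the level filter were those of Cfb, factor B (107 against 176), and Cfp, properdin (313 against 421). Among 16 complement receptors and regulators 3 were higher by 2-fold or more by measured value on the RANKhigh array, Cd59a among them with a smaller bound, and 0 lower by 2-fold or more (median -0.13). Cd55, which dismantles the C3 convertase, stood at 576 against 137 (4.19-fold). Cr2, the complement receptor of B cells, stood at 180 against 85.9 (2.10-fold), and Cd59a, the inhibitor of the membrane attack complex, at 136 against 40.2 (at least 1.66-fold). Cd93, named after its values were seen, once described as a C1q receptor, stood at 594 against 1075.

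Among 12 measured transcription regulators of macrophages 1, Zeb2, was lower by 2-fold or more on the RANKhigh array (645 against 1603) and 0 higher by 2-fold or more, with a median of -0.22. Named after their values were seen, Spi1, which encodes PU.1, stood at 196 against 390, and Maf, which encodes c-Maf, at 108 against 101. Nr1h3, the liver X receptor alpha known to induce Cd5l and Mertk in macrophages, was below the guide on both arrays at 69.1 against 60.0. None of the regulators measured thus had the direction of C1qc with a 2-fold size.

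**Figure D3:**
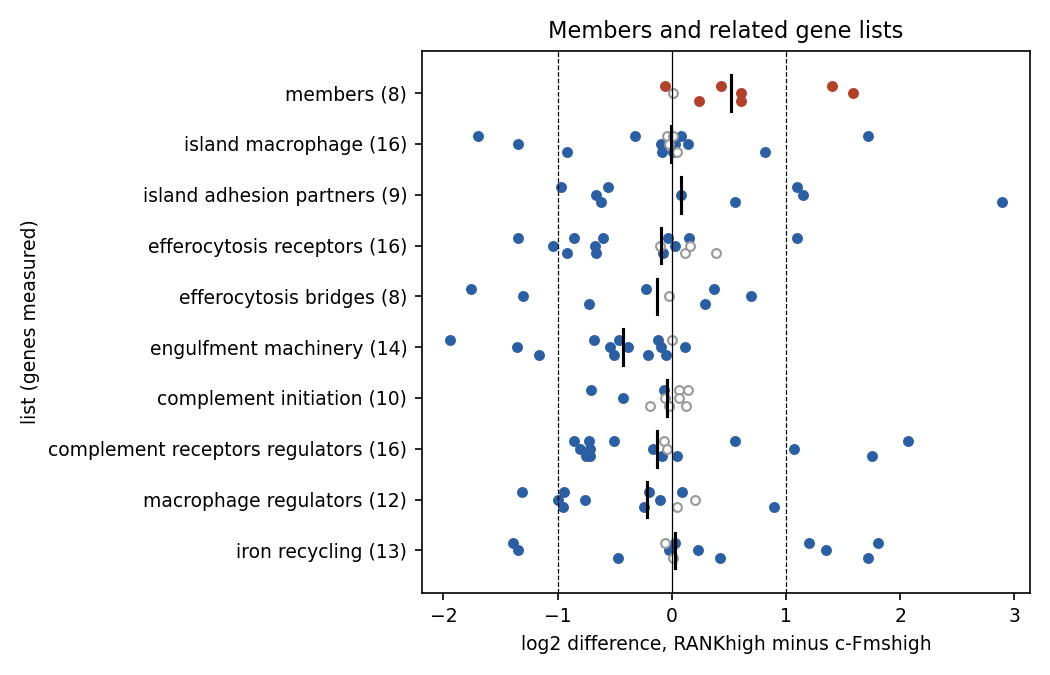
Log2 difference, RANKhigh minus c-Fmshigh (x axis), for the 8 members (red) and for the related gene lists (blue), a point per gene, with open points for genes under the level filter, black bars at list medians and dashed lines at 2-fold. The engulfment machinery lies mostly left of 0 (median -0.42), whereas the members lie mostly right of it (median 0.52).

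Cells that could carry the member transcripts were examined through marker lists. Of 7 macrophage markers 4 were lower on the RANKhigh array by 2-fold or more, 2 were lower by less and Marco was under the guide on both arrays, with a median of -1.14 and a summed intensity of 4878 against 10938. They were led by the scavenger receptor gene Msr1 (209 against 1119) and Adgre1. All 6 measured monocyte markers were lower by 2-fold or more (median -2.08, sum 3094 against 16016), led by the coagulation factor gene F13a1 and the fibronectin gene Fn1. Dendritic cell markers, from cells that also make C1q, had a median of -0.70 over 6, with 2 lower by 2-fold or more by measured value (sum 534 against 1075). These were Cd209a (at least 3.97-fold) and Clec9a (at least 1.63-fold). C1qc and Vcam1 therefore differed in the direction opposite to the medians of these 3 lists.

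Markers of several other lineages shared the direction of C1qc and Vcam1. Besides the erythroid list, 8 of 10 neutrophil markers were higher by 2-fold or more on the RANKhigh array (median 2.48, sum 43642 against 13950), with Retnlg and Ly6g in front. All 7 measured B-lineage markers were higher by 2-fold or more (median 2.16, sum 10222 against 2658), led by Pax5 and Vpreb3, and by measured value so were 4 of 6 eosinophil markers (median 1.46, sum 11134 against 1190), led by Prg3 and Prg2. Of the 4, Il5ra, not above the guide on the c-Fmshigh array, was at least 1.21-fold higher. The osteoclast list was mixed, with 4 of 8 differences above 0 and 4 below 0. Of these 8 markers 2 were higher by 2-fold or more by measured value, Acp5 (546 against 188) and Mmp9 (at least 3.38-fold). On both arrays 5 were below the guide (median 0.07, sum 1171 against 620). The part of these cells in the member values was not tested. In sorted populations a larger number of expressing cells and more transcript per cell cannot be told apart.

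**Figure D4:**
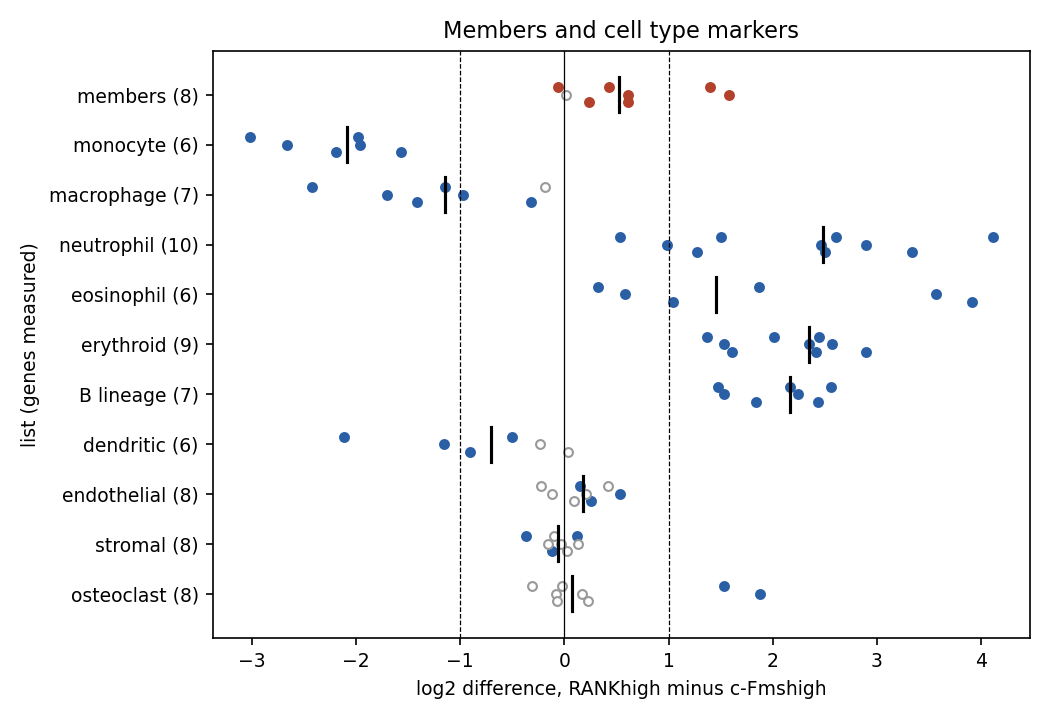
Log2 difference, RANKhigh minus c-Fmshigh (x axis), for the 8 members (red) and for 10 lists of cell type markers (blue), a point per gene, with open points for genes under the level filter, black bars at list medians and dashed lines at 2-fold. Erythroid markers have a median of 2.35, macrophage markers -1.14 and monocyte markers -2.08, and the members lie between them.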

How the data were processed

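The authors deposited an intensity for each probe set on each array, taken here as linear from its range. The tools named in the submitters' processing notes are GCOS 1.4 and RMA, with their roles, order and genome build not given in the sources used here. Background correction and normalization between arrays were those of the authors. The 2 arrays had medians of 94.5 and 92.6. The number of arrays limits the precision.

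The platform annotation of 2016 assigned 21780 of 28815 probe sets to 1 gene and 1605 to several genes, and did not list 5430. Of the 21780, 21689 were matched to the GRCm38.p6 gene table, and 0 symbols changed. Intensities were put on the log2 scale without a pseudocount and averaged over the probe sets of a gene (Python 3.11.15, pandas 2.3.3, numpy 2.4.6). The size rule was checked on simulated data. No test or p-value was computed.

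The members and lists were chosen with earlier results of these data known. Named are all members, the sort markers and the 6 genes nearest to the C1q mean. Of each pathway list those 2-fold or more apart above the level filter (93.6) are named, or else the 2 with the largest difference, and of each marker list the 2 with the largest difference. Genes named as members' neighbours or to describe a role were added after their values were seen. Alternatives were centring, quantile normalization, a pseudocount of 32, the brightest probe set, a 1.5-fold threshold, other level filters and, added after seeing the data, a guide at the 99th percentile.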

Additional observations from a re-analysis of the deposited data

How the results depend on the processing

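No paired analysis was possible because each population has 1 array. Median centring, quantile normalization and the pseudocount of 32 left the counts of members at least 2-fold apart at 2 higher and 0 lower. Under each of these settings all 8 members moved by less than the median gap between probe sets of a gene (0.19). Taking the brightest probe set could not change the member values, since each member has 1 probe set. The mean of the C1q chains ranged from 0.62 with the pseudocount to 0.71, and the member median from 0.39 with the pseudocount to 0.61 with Mertk, which did not pass the level filter, left out. With a 1.5-fold threshold 4 members were higher by measured value, C1qb and Cd5l being added (Cd5l with a bound of only 1.34-fold), beside 10.5% of all genes higher and 12.4% lower. Without the level filter these shares were 2.44% and 2.38% at 2-fold. With the guide at the 99th percentile, chosen after seeing the data, 4 members in place of 7 were above it on at least 1 array and 3 in place of 6 on both. Low signal therefore limits what can be said of Mertk, Axl, Cd5l, Timd4 and, on the c-Fmshigh array, C1qb. It likewise limits the folds of other named genes with a value little above the guide. Examples are Dock1 and Cd300lb on the RANKhigh array and Cr2 on the c-Fmshigh array.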
